A study of Caenorhabditis elegans with 2 samples.

Results

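The proteasome is the protease complex that degrades ubiquitin-tagged proteins. Genes for its subunits in the nematode C. elegans were examined for enrichment of ZTF-4, a zinc finger protein. Members were all protein-coding genes of the Ensembl WBcel235 annotation named pas-, pbs-, rpt- or rpn-, which gave 33 of 19985 protein-coding genes. Of these, 14 encode the core particle (7 pas and 7 pbs genes) and 19 the regulatory particle (6 rpt and 13 rpn genes). They lay on chromosomes I (10 genes), II (7), III (8), IV (3) and V (5), and X held 0.

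Chromatin immunoprecipitation with sequencing had been done on whole L3 larvae, the third larval stage, of strain OP322. These worms carried the unc-119(ed3) allele on chromosome III and the integrated transgene wgIs322, from which eGFP-tagged ZTF-4 is expressed. There was 1 group, of 2 biological replicates of mixed sex, with no untagged or other-stage group, so no comparison of conditions could be made. Whole animals mix all tissues, so binding in a few cells and weak binding in many cannot be told apart.

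In the core particle, stacked rings of alpha (pas) and beta (pbs) subunits enclose the cutting sites, which sit on a few of the beta subunits. The regulatory particle caps this barrel: a ring of ATPases (rpt) unfolds the substrate, and the other subunits (rpn) bind, trim and release ubiquitin or act as scaffold. In C. elegans the transcription factor SKN-1, in its SKN-1A isoform, raises proteasome genes when proteasome function falls.

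The data were lists of regions, each with a summit (the base of strongest enrichment) and the authors' signal value. The pooled list, made from both replicates at once, held 30000 candidate regions, and the lists of single replicates held 29249 (replicate 1) and 30000 (replicate 2). The 704 regions that passed the irreproducible discovery rate are called IDR peaks. Of the pooled regions 16.9% had a q-value of at most 0.05. Signal sizes have no common scale between lists, so lists were compared by rank (1 is strongest), and read depth is unknown. A gene was counted where a summit lay within 500 bp of its annotated 5' end.

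Sequences around the strongest pooled summits are given first, to show the DNA at the base of strongest enrichment. Each is a stretch of the WBcel235 assembly (ce11 coordinates), reaching 50 bases to each side of the summit and written 5′ to 3′ on the strand of the gene. Capitals mark GACGCA, the word most over-represented at all ZTF-4 summits of these data in earlier work on them, and ATCAT or GTCAT, core words of SKN-1 sites, each searched on both strands; no GACGCA overlaps a core word in the windows shown. Of the 8 members with the strongest pooled summits, the 4 on chromosomes II, III and IV are printed: rpn-3 (chrIII:8447132-8447232), rpn-1 (chrIV:6910099-6910199), rpn-13 (chrIII:6342205-6342305) and rpn-11 (chrII:4044512-4044612).
rpn-3: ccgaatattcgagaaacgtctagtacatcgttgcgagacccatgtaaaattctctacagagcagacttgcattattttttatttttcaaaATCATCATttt
rpn-1: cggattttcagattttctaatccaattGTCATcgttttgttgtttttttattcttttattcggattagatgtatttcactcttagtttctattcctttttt
rpn-13: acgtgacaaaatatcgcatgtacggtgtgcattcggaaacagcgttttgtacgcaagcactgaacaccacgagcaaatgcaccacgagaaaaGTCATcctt
rpn-11: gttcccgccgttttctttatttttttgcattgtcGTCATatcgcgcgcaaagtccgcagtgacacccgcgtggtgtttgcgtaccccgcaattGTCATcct

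None of these 4 windows held GACGCA, and all 4 held a SKN-1 core word. Of the other 4 members with the strongest summits, whose windows are not printed, rpn-8, pas-5 and pbs-2 held a core word, pbs-7 did not, and none held GACGCA. The 3 members whose strongest summit did have GACGCA within 50 bp were rpt-6 (chrIII:12370128-12370228), rpn-9 (chrII:11239092-11239192) and rpn-2 (chrIII:6198782-6198882), shown for that word and chosen after their sequences were seen.
rpt-6: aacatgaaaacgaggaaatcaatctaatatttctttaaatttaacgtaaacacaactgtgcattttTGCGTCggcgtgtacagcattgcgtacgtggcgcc
rpn-9: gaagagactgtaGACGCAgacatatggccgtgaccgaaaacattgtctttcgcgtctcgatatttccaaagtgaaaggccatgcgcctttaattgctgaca
rpn-2: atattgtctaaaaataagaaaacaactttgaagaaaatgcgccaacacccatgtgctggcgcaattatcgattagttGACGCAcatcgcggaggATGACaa

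Most proteasome genes had a ZTF-4 candidate region at the start, and 1 of them was an IDR peak. A pooled summit lay within 500 bp of the 5' end at 24 of 33 members (72.7%, Wilson 95% interval 55.8 to 84.9), against 28.6% of all protein-coding genes. Under a q-value limit of 0.05, which was chosen once the data had been seen, 12 of 33 remained (36.4%, interval 22.2 to 53.4), against 8.87% of all. An IDR peak was found at 1 member, rpn-3 (3.03%, interval 0.537 to 15.3), against 1.72% of all protein-coding genes. Among genes with any pooled summit the IDR share was 1 of 24 members, against 6% of all such genes. Intervals cover counting error over genes only, and no test was made of the list, since its members were chosen with earlier results of these data known.

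**Figure D1:**
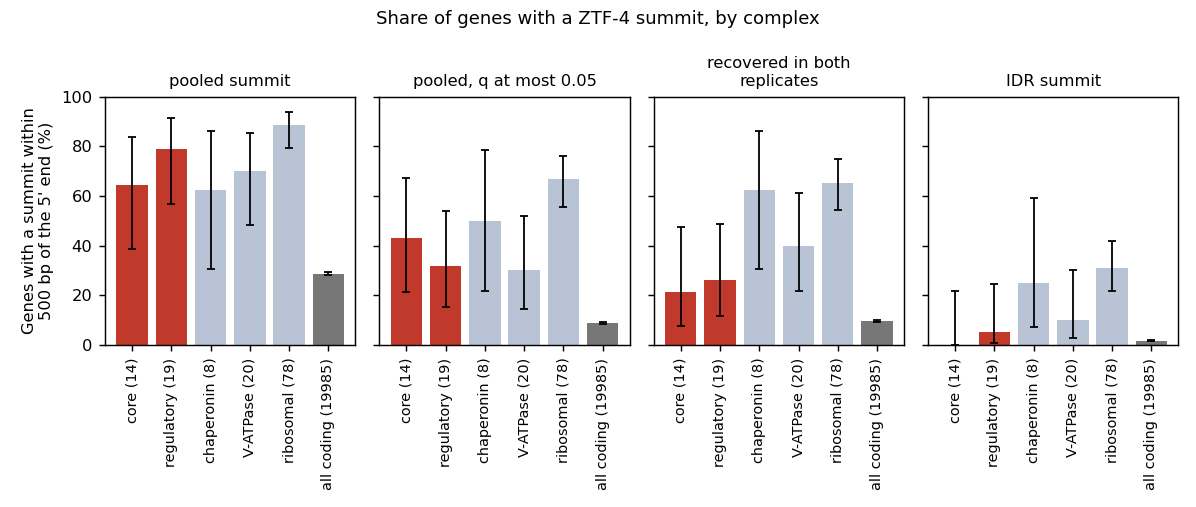
Share of genes (%) with a summit within 500 bp of the 5' end, for the 2 proteasome particles, 3 other complexes and all protein-coding genes, under 4 rules; bars are shares, lines are Wilson 95% intervals and numbers in brackets are genes. The core and regulatory particles stand at 64.3% and 78.9% for pooled summits and at 0% and 5.26% for IDR peaks, against 28.6% and 1.72% of all protein-coding genes; in replicate 1, not plotted, they stand at 71.4% and 47.4%.

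In the separate replicates, 19 members (57.6%) had a summit in replicate 1, against 29.4% of all protein-coding genes, and 24 (72.7%) had one in replicate 2, against 29% of all. The share was thus above that of all genes in each list, and lower in replicate 1. A pooled summit with a partner within 100 bp in both replicates was found at 8 members (24.2%, interval 12.8 to 41.0), against 9.63% of all. These were pas-5, pbs-2, pbs-7, rpt-1, rpt-6, rpn-3, rpn-10 and rpn-12. Counts of this kind depended on the matching rule: 4 members remained when partners had to be within 50 bp, and 13 when regions had to overlap by 50% of each. The share of all protein-coding genes is given for the 100 bp rule only, so the other counts have no comparison. Of the pooled summits at members, 23.5% had a partner within 100 bp in both replicates, against 27.0% of all pooled regions near coding starts. Counted by summit, recovery at members was thus not above that at all genes.

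The regulatory particle subunit gene rpn-3, which encodes a scaffold subunit of the lid, had the strongest region of the family. Its peak spanned chromosome III 8446997 to 8447366, with signal 52.2 and rank 245 in both the pooled and the IDR list. The summit at 8447182 was intergenic, 171 bp upstream of rpn-3 and 273 bp from the 5' end of the diverging gene hsp-110, an Hsp70-related chaperone gene, so the peak cannot be assigned to either. In replicate 2 a summit at the same base ranked 175, and in replicate 1 one 40 bp away ranked 1216. The region was thus among the 704 strongest of replicate 2 but not of replicate 1.

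The deubiquitinase partner subunit gene rpn-8 came next, with a summit inside its own intron, 347 bp downstream of the 5' end. The pooled signal was 29.2 (rank 1224, region 4175481 to 4175850 on chromosome I), at the ceiling of the q column that only rpn-3 also reached among members. Replicate 2 had it at rank 498, with the summit 1 bp away. Replicate 1 had no summit within 100 bp. Its only summit at rpn-8, at rank 4505, lay 203 bp upstream, near a second pooled summit of signal 5.81 and rank 29885 between rpn-8 and the diverging mitochondrial ribosomal protein gene mrps-6. The replicates thus placed their region at different sides of the rpn-8 start.

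Among the other regulatory subunits the leading regions were those of rpn-1, rpn-13 and rpn-11. For rpn-1, the large scaffold subunit of the base, the pooled summit had signal 22.1 (rank 2433), 236 bp upstream. Replicate 2 ranked it 1058, and replicate 1 had no summit within 500 bp. For rpn-13, a ubiquitin receptor, signal was 20.9 (rank 2805) at 327 bp upstream. The replicates' nearest summits there lay 434 bp (replicate 1, rank 15499) and 180 bp (replicate 2, rank 2605) upstream, so neither was within 100 bp of the pooled one. For rpn-11, the deubiquitinase of the lid, signal was 18.6 (rank 3681) at 16 bp upstream, with replicate 2 at the same base (rank 3242) and no replicate 1 summit within 500 bp.

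Of the 19 regulatory genes 15 had a pooled summit (78.9%), and their strongest summits had signals from 7.48 (rpn-7) to 52.2 (rpn-3), with a median of 14.7. In replicate 1 alone 9 of 19 had a summit (47.4%), below the 10 of 14 core genes (71.4%), so the order of the particles was the other way there. The non-ATPase genes had one at 12 of 13 (92.3%, interval 66.7 to 98.6), rpn-6.2 being the exception, but at 6 of 13 (46.2%) in replicate 1, where the ATPase genes had one at 3 of 6. In the pooled list the ATPase genes had one at 3 of 6, namely rpt-1 (signal 18.1, 189 bp upstream), rpt-2 (16.0, 165 bp upstream) and rpt-6 (14.7, 278 bp upstream). Summits at rpt-3 were present in both replicates, 188 bp (replicate 1, rank 8327) and 189 bp (replicate 2, rank 14675) downstream, but the pooled list had none within 500 bp. The intervals of the ATPase genes (18.8% to 81.2%) and the non-ATPase genes overlapped, and the difference was not tested.

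At the low end of the regulatory particle, rpn-2 (7.93, rank 19986) and rpn-7 (7.48, rank 21773) had only faint regions. The region of rpn-2, the other large base scaffold gene, had no partner in either replicate within 500 bp. That of rpn-7 was nearer to the diverging gene F49C12.9 (74 bp) than to rpn-7 (342 bp). The lid genes rpn-9 (signal 11.1), rpn-6.1 (10.1) and rpn-5 (9.59) lay between. Of the paralogs rpn-6.1 and rpn-6.2, rpn-6.1 had a summit 146 bp upstream, which replicate 2 also held 66 bp away (rank 16619), but which lay in the 5' UTR of F57B9.1, 57 bp from the 5' end of that gene. For comparison, the nearest pooled summit to rpn-6.2 was 5355 bp away.

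In the core particle 9 of 14 genes had a pooled summit (64.3%, interval 38.8 to 83.7), with strongest signals from 9.01 (pas-1) to 21.0 (pbs-7) and a median of 17.4. None was an IDR peak, and 0 of 14 allows up to 21.5% by the Wilson interval. The beta subunit genes made up most of the stronger ones in the pooled list. Of 7 pbs genes 5 had a pooled summit with q at most 0.05: pbs-1, pbs-2, pbs-3, pbs-5 and pbs-7. Of 7 pas genes 1 had one, pas-5, and the share of all protein-coding genes was 8.87%. The intervals, 35.9% to 91.8% for pbs and 2.57% to 51.3% for pas, overlapped, and the q limit was chosen once the data had been seen. Without that limit 5 of 7 pbs genes and 4 of 7 pas genes had a pooled summit. In replicate 1 each group had a summit at 5 of 7 genes. A pooled summit with a partner within 100 bp in both replicates was found at 2 of 7 pbs genes and 1 of 7 pas genes. The pbs-3 summit, 126 bp upstream, had no partner within 100 bp in either replicate. Replicate 2 did have a summit 25 bp upstream of pbs-3 (rank 3545), just outside that limit, and replicate 1 one 290 bp downstream (rank 20544). The strongest summit of pbs-5 had a partner within 100 bp only in replicate 2, and that of pbs-1 only in replicate 1.

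For pbs-7 the pooled summit was 11 bp upstream (signal 21.0, rank 2767), with replicate summits 17 bp away (replicate 1, rank 9501) and 82 bp away (replicate 2, rank 3069). For pas-5, an alpha subunit gene, it was 391 bp upstream (18.9, rank 3540), and replicate 2 had it 1 bp away at rank 4000, whereas replicate 1 ranked it 23799. For pbs-2, which encodes a catalytic beta subunit, it was 313 bp upstream (18.5, rank 3724), with replicate 2 at the same base (rank 5157) and replicate 1 5 bp away (rank 7288). At pbs-7 and pas-5 the region ranked higher in replicate 2, as it also did at pbs-2. The pbs-2 summit also lay 353 bp from the 5' end of the translation factor gene eif-6.

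The region of the catalytic subunit gene pbs-1 was held by 1 replicate only. It ranked 520 in replicate 1, inside the strongest 704, where it was the only member. In replicate 2 the nearest summit was 777 bp upstream, outside the window. In the pooled list the summit lay 204 bp upstream with signal 18.3 (rank 3820). The catalytic gene pbs-5 had its strongest summit 62 bp downstream of the start, in coding sequence (17.4, rank 4312).

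**Figure D2:**
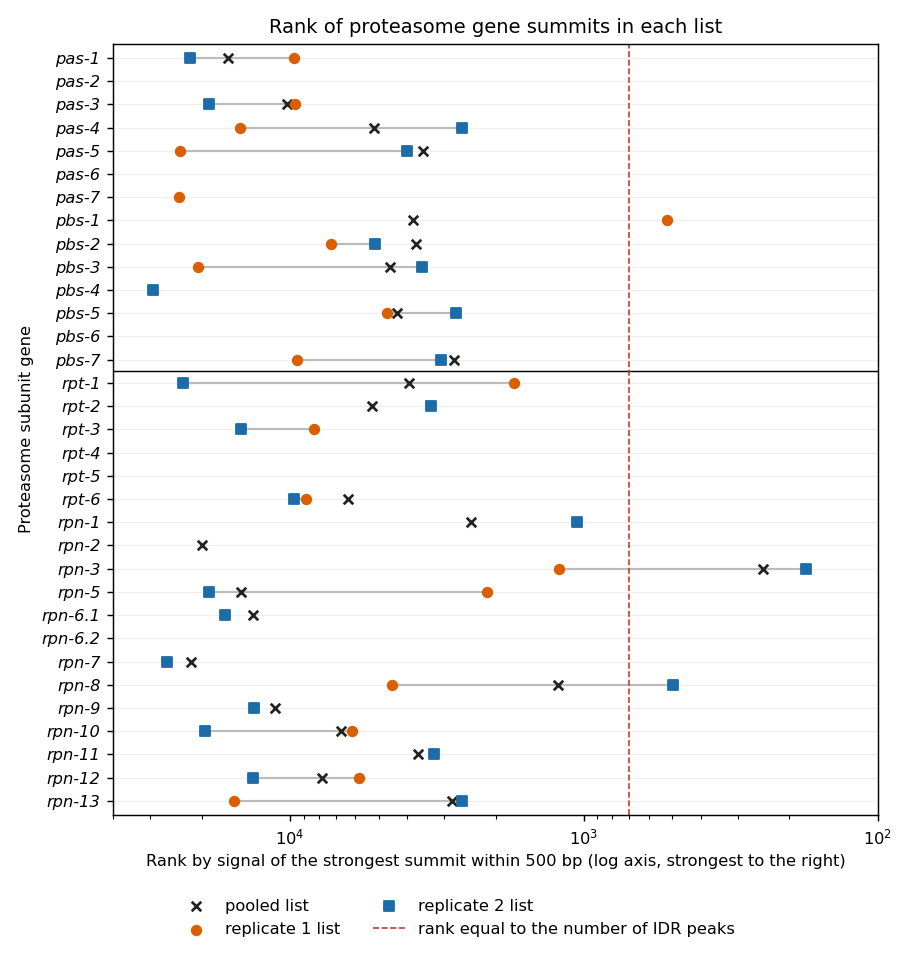
Rank by signal (log axis, strongest to the right) of the strongest summit within 500 bp of each proteasome gene, in the pooled list (crosses), replicate 1 (circles) and replicate 2 (squares), with grey lines joining the replicates and a dashed line at the number of IDR peaks. Only rpn-3 and rpn-8 in replicate 2, rpn-3 in the pooled list and pbs-1 in replicate 1 pass the dashed line.

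Across members the strongest summits of the replicates showed no common order. For the 17 members with a summit in each replicate, Spearman's rho between the replicate ranks was -0.07 and Pearson's r of log2 signal was 0.00. Over the 3398 protein-coding genes with a summit in each, rho was 0.47 and r 0.56. The summits paired can be different regions, as at rpn-8 (203 bp upstream in replicate 1, 348 bp downstream in replicate 2). No interval was computed for the 17 members, and the difference from all genes was not tested. The correlations are descriptions across genes, which share the same libraries. Of the 34 pooled summits at members, 15 (44.1%) had a partner within 100 bp in replicate 1 and 21 (61.8%) in replicate 2. Among all 6514 pooled regions near coding starts, the shares were 42.1% and 71.3%.

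By rank within the pooled list, the strongest summits of the 24 members stood above the middle of those of all genes. Their median signal was 16.5, against 11.6 for the 5719 protein-coding genes with a pooled summit, and their median position was the top 16.3% of the list, against the top 34.6%. In replicate 1 the medians were the top 28.5%, against 40.1% for all genes, and in replicate 2 the top 24.7%, against 34.6%. In the pooled list core genes stood at a median of the top 14.4% and regulatory genes at the top 21.2%, although the regulatory particle held the leading gene, rpn-3. In replicate 1 the order of the particles was the other way. The middle core genes there, pas-3 and pas-1, stood at the top 32.9% and 33.3%, and the middle regulatory gene, rpn-12, at the top 19.9%. The strongest summits of 12 of 24 members were among the 5000 strongest pooled regions (50%), against 30.7% of all genes with a pooled summit. Members had 34 pooled summits at 24 genes, against 7182 at 5719 among all genes. The effect of taking the strongest over unequal numbers of summits was not tested.

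**Figure D3:**
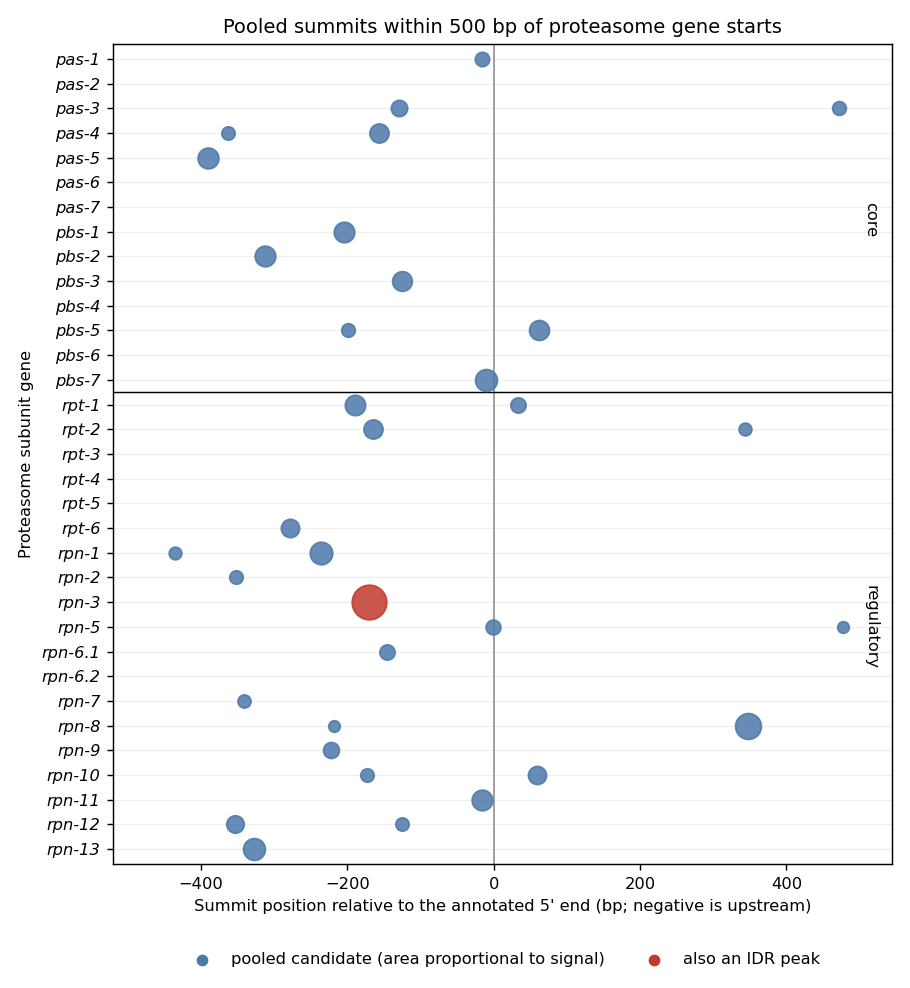
Positions of the 34 pooled summits within 500 bp of the 5' end of proteasome genes (x axis, bp, negative is upstream; 1 row per gene, core above and regulatory below the line), with circle area proportional to signal and the IDR peak of rpn-3 in red. Of the 34 summits, 27 lie left of the start and 7 right of it.

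Summits lay mostly on the upstream side of proteasome genes. Of the 34 pooled summits, 27 were upstream (79.4%, interval 63.2 to 89.7), at a median of 168 bp upstream over all 34, against 62.3% of the summits at all protein-coding genes, whose median was 98 bp upstream. The particles were alike in this, with 10 of 12 summits upstream in the core and 17 of 22 in the regulatory particle. The 7 downstream summits belonged to pas-3, pbs-5, rpt-1, rpt-2, rpn-5, rpn-8 and rpn-10, and those of pbs-5, rpn-8 and rpn-10 were the strongest of their genes. A pair of summits was found at 10 members, as at rpn-1, and 1 summit at the other 14. By annotation 20 of the 34 were intergenic, 5 in coding exons, 3 in introns, 3 in 3' UTRs of neighbouring genes, 2 in non-coding genes and 1 in a 5' UTR.

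**Figure D4:**
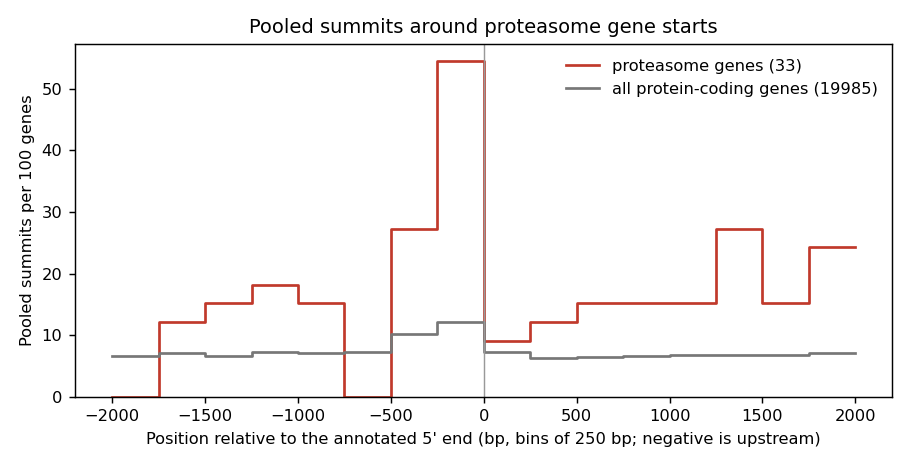
Pooled summits per 100 genes (y axis) in 250 bp bins around the 5' end (x axis, bp, negative is upstream) for the 33 proteasome genes (red) and all 19985 protein-coding genes (grey). The bin just upstream of the start holds 54.5 summits per 100 proteasome genes, against 12.1 per 100 of all genes.

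The density of candidates was also higher in the flanks of proteasome genes. Within 500 bp there were 1.03 pooled summits per kb of window at members, against 0.359 at all protein-coding genes. Between 500 and 2000 bp from the 5' end there were 0.576 per kb at members, against 0.275. The part of this wider density in the counts at the starts was not tested.

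Many proteasome genes shared the upstream space with a diverging neighbour. The nearest coding gene upstream was diverging for 22 of 33 members (66.7%), against 42.1% of all protein-coding genes, as for hsp-110 beside rpn-3, eif-6 beside pbs-2 and rpb-3, an RNA polymerase II subunit gene, beside pas-4. Among members with a diverging neighbour 16 of 22 had a pooled summit (72.7%), against 28.8% of all such genes. Of 8 members that followed a same-strand gene within 500 bp, an arrangement typical of C. elegans operons, 6 had one (75.0%), against 34.8% of all such genes. The member share was thus above that of all genes in both arrangements as counted. Diverging neighbours were taken at any distance, as at pbs-4 (3539 bp), and were not matched by distance between members and all genes.

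This arrangement limits what can be said of single genes. Of the 34 summits, 17 (50%) were within 500 bp of more than 1 coding 5' end, against 9.96% of all pooled regions near coding starts, and 8 were nearer to another gene. For pas-3 the stronger summit lay 27 bp from use-1 and 129 bp from pas-3. For pas-4 both summits were nearer to rpb-3. For rpt-2 the strongest was 136 bp from aps-1 and 165 bp from rpt-2, and for rpn-12 it was 41 bp from rad-23 and 354 bp from rpn-12. The last pair joins a lid subunit gene with the gene for a shuttle factor that carries ubiquitin-tagged proteins to the proteasome.

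No pooled summit was found within 500 bp at 9 members: pas-2, pas-6, pas-7, pbs-4, pbs-6, rpt-3, rpt-4, rpt-5 and rpn-6.2. Of these, pas-7 had a summit in replicate 1 (219 bp upstream, rank 23994), pbs-4 one in replicate 2 (32 bp upstream, rank 29298), and rpt-3 one or more in each. The other 6 had none in any list. Just outside the distance were pas-2, with a pooled summit 762 bp downstream, and rpt-4, at 777 bp downstream. Just inside were the second summits of rpn-5 at 477 bp and pas-3 at 472 bp. The annotated starts of rpt-4 transcripts span 2554 bp, and counting every transcript's 5' end added rpt-4 alone. Of these 9 genes rpt-3 was farthest from a pooled summit, at 19149 bp.

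Words in the promoters were compared over 250 bases before to 50 after each 5' end. GACGCA or its reverse complement TGCGTC was in 1 of 33 member promoters, that of pas-2 (3.03%, interval 0.537 to 15.3), against 8.78% of 19984 protein-coding promoters. Over 500 bases before the 5' end the order was the other way, with 6 of 33 (18.2%, interval 8.61 to 34.4) against 12.9%. Within 50 bp of the strongest pooled summits it was in 3 of 24 (12.5%, interval 4.34 to 31.0), against 6.22% of 5719. Each of these GACGCA intervals includes the matching share of all genes. A SKN-1 core word, ATCAT or GTCAT or their reverse complements ATGAT and ATGAC, was in 28 of 33 member promoters (84.8%, interval 69.1 to 93.3), against 72.1% of all.

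At the strongest summits themselves a SKN-1 core word was within 50 bp at 17 of 24 members (70.8%, interval 50.8 to 85.1), against 31.9% of the strongest summits of all genes. These included rpn-3, where a pair of overlapping ATCAT words ends near the end of the window shown above, and rpn-1, rpn-11 and rpn-13. GC content in the same windows had a median of 40.6% at members (range 26.7 to 54.5), against 35.6% at all genes with a pooled summit. A match says only that these letters are present.

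Of other genes that act with the proteasome, 18 associated factors were looked at. A pooled summit was present at 14 (77.8%) and an IDR peak at 2, wdr-23 and uba-1. The gene wdr-23, whose product promotes SKN-1 degradation, had signal 48.4 (pooled rank 301) 80 bp upstream, with replicate ranks of 219 and 665. It was thus among the strongest 704 in each replicate, unlike any of the 33 subunit genes. The gene uba-1, for the ubiquitin-activating enzyme, had signal 45.5 (pooled rank 369) 405 bp upstream. Replicate 2 had a summit there at rank 157, but the strongest replicate 1 summit within 500 bp lay 90 bp downstream (rank 3423). At skn-1 itself the pooled summit lay 37 bp downstream (signal 21.2, rank 2693). The strongest replicate summits at skn-1 lay 9 bp upstream (replicate 1, rank 1303) and 169 bp downstream (replicate 2, rank 4837). At usp-14, for a proteasome-bound deubiquitinase, the pooled summit lay 174 bp upstream (25.5, rank 1701). Replicate 2 had a summit 177 bp upstream of usp-14 (rank 1170), and replicate 1 had none within 500 bp. The genes dss-1, ddi-1, png-1 and sel-1 had no pooled summit within 500 bp.

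Ubiquitin-conjugating enzyme genes (ubc-) had a pooled summit at 12 of 21 (57.1%) and an IDR peak at 1, ubc-3, with signal 51.4 (pooled rank 263) 277 bp upstream and replicate ranks of 67 and 792. Set beside other multisubunit complexes, the pooled share of proteasome genes (72.7%) stood near that of vacuolar ATPase genes (14 of 20, 70.0%) and chaperonin genes (5 of 8, 62.5%), and below that of cytosolic ribosomal protein genes (69 of 78, 88.5%). For pooled summits recovered in both replicates the proteasome share was lower than the others, 24.2% against 40.0% (vacuolar ATPase), 62.5% (chaperonin) and 65.4% (ribosomal). Its interval, 12.8% to 41.0%, overlapped those of the vacuolar ATPase (21.9% to 61.3%) and chaperonin (30.6% to 86.3%) but not the ribosomal one (54.3% to 75.0%). For IDR peaks the counts were 1 of 33 proteasome genes, 2 of 20, 2 of 8 and 24 of 78. The interval for proteasome genes, 0.537% to 15.3%, did not overlap that for ribosomal protein genes, 21.6% to 41.7%, and overlapped those of the smaller complexes.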

How the data were processed

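Deposited ChIP-seq region lists of ZTF-4 in L3 larvae were used: 1 per replicate, 1 pooled and 1 thresholded by IDR. Per the labels, fragments of 150 to 350 bp were selected and lists exist in ce11 and ce10; ce10 was not used, since no annotation of that build was at hand. The deposited inventory derives each candidate list from its alignments plus 1 further file, not analysed here, and the IDR list from the 3 candidate lists, so pooled and IDR regions are not independent of the replicates. The labels name a possible control. The caller, aligner, versions, IDR threshold and the control's strain are not given in the sources used here. The authors' signal value per region was used only within a list. The deposited −log10 q-values, read as such from the column layout, reach a ceiling of 3.15 in the pooled list, shared by 2113 regions. The summit offset was taken as deposited, and coordinates are 1-based.

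Gene models were Ensembl release 115 and the sequence was RefSeq's WBcel235, both ce11. No region extended past a chromosome end. Read depth is unknown. Counts were set beside all protein-coding genes with Wilson 95% intervals. No set test was made. Scripts ran in Python 3.11.15 with matplotlib 3.10.9, scipy 1.17.1, pandas 2.3.3 and numpy 2.4.6, and the assignment of summits to starts was tested on simulated data. Members given in full were the gene with an IDR peak and the next by pooled signal, 8 in all; sequences are of those not on the first chromosome. Members and lists were chosen with earlier results of these data known.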

Additional observations from a re-analysis of the deposited data

How the results depend on the processing

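No paired analysis was possible because there was 1 group. Of 57 alternative values, 45 stayed within 1.5 times the count or within a spread, and 12 did not. The cause was not tested where no construction explains it. For the median position the spread was 2.66 percentage points, the standard deviation of the replicate medians. A value that stayed can still differ: the GACGCA share of 8.82% at pooled summits, against 3.03% in promoters (interval 0.537 to 15.3), was counted as staying. With q at most 0.05, which leaves fewer regions, pooled counts were 12 members and 6 regulatory genes, against 24 and 15; the core count was 6 against 9. In lists without a replicate, regulatory genes with a summit ranged from 9 (replicate 1 alone) to 15, all members from 19 to 24 and core genes from 9 to 10. The IDR count of 1 ranged from 1 to 2 in the strongest 704 regions of single replicates (pbs-1 in replicate 1, against 1.48% of all protein-coding genes; rpn-3 and rpn-8 in replicate 2, against 1.59%), which are also the counts under that threshold for replicate 1 (1, against 19) and replicate 2 (2, against 24). The 8 members recovered in both replicates became 4 within 250 bp of the start, 4 with a 50 bp match and 13 with reciprocal overlap. Shares of all protein-coding genes under these alternatives are not given. The median position, top 16.3%, ranged from 24.7% to 28.5% in single replicates, and the upstream share, 79.4%, from 72.4% to 73.1%. The upstream share was 85.7% within 250 bp and 65.3% within 1000 bp. The 62.3% of all protein-coding genes was counted within 500 bp, so it is not a like comparison for either. The share of promoters with GACGCA was 18.2% over 500 bases, against 3.03%. At 250 and 1000 bp pooled counts were 18 and 26, against 17.9% and 38.6% of all protein-coding genes.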
